A study of Mus musculus with 8 samples.

Results

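The libraries rich in tumour RNA were set against those poor in it, among 8 of sorted mouse Kupffer cells. Kupffer cells are macrophages that live in the blood vessels of the liver. The sides were chosen on the measured levels of Pmel, Dct and Tyrp1 and follow the number in the title. The low side is made of the libraries numbered 1 and 2 of both genotypes and the high side of those numbered 3 and 4, so that 4 libraries stand against 4 and all 8 libraries of the series are used. Of 56691 genes in the deposited table, 30007 had a count in some library and 17142 passed the expression filter. The wild-type (WT) mice and the mice without Vsig4 (KO), a complement receptor of tissue macrophages, had all received B16F10 cells, a mouse melanoma line, and all livers carried its metastases when the cells were taken 7 days later. The sort kept DAPI-negative cells with the leukocyte protein CD45 and the Kupffer receptor Tim-4. The labels give no strain, age or sex, do not say whether a library is 1 animal, and attach no batch or day to the numbers.

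The division was made with melanoma transcripts in view, so every difference between the sides is a description without a test. The tests compare KO with WT with the side held constant, KO with WT within a side, and the genotype difference between the sides. Pigment genes chose the division, so their genotype differences too are given without a test, and other genes that move with melanosome RNA are not independent of it. A p-value here sets a genotype difference against the spread between libraries, which may be in part technical.

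Melanocytes and melanoma cells make pigment in melanosomes, organelles in which the enzymes Tyr, Tyrp1 and Dct build melanin on fibrils of Pmel. Mitf and Sox10 are the transcription factors that keep these genes active, and Mitf binds a short E-box motif. Kupffer cells do not make melanin, but they engulf dying cells and debris from the blood, and they are marked by the lectin Clec4f, the secreted scavenger protein Cd5l and Tim-4.

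Depth was similar on both sides, with 15264043 to 19513844 counts and 22323 to 23483 genes detected per library. Mitochondrial transcripts held 4.07% to 8.16% of counts, highest in WT 3. Along the first principal component (59.59% of variance) WT 1 and WT 2 lay at the opposite end from KO 3. KO 3 stood apart, with the most melanosome RNA and the least Kupffer RNA. Vsig4 had 22498 to 46735 counts in WT libraries and 2 to 9 in KO libraries (log2 fold change -12.87 ± 0.236, edgeR adjusted p = 6.98e-09).

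Pigment transcripts were the plainest difference between the sides. Levels are given in CPM, counts per 1000000 of TMM-scaled library size, in the order WT 1, WT 2, KO 1, KO 2 for the low side and WT 3, WT 4, KO 3, KO 4 for the high side. The 18 pigment and melanosome genes summed to 658, 585, 2818 and 4021 CPM on the low side. On the high side they summed to 6179, 5300, 13771 and 7214 CPM. The boundary therefore runs between KO 2, the highest low library, and WT 4, the lowest high library. WT 1 and WT 2 held far less than KO 1 and KO 2, so the low side is itself uneven. The high-to-low ratio of mean sums was 9.23 in WT and 3.07 in KO.

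**Figure D1:**
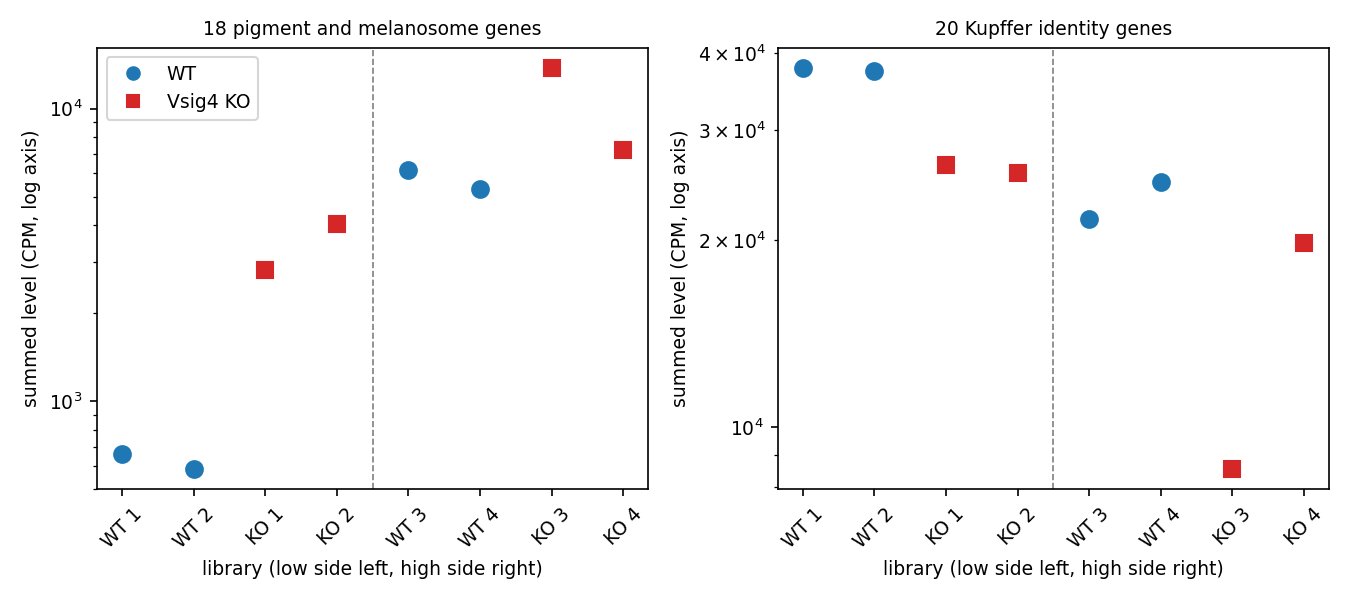
Summed level of the pigment and melanosome list (left) and the Kupffer identity list (right) in each library, in CPM on a log axis; circles are WT, squares are KO, and the dashed line divides the sides. Pigment sums run from 585 to 4021 CPM on the low side and from 5300 to 13771 CPM on the high side.

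Pmel, the fibril protein of the melanosome, was at 85.9, 72.5, 449 and 625 CPM on the low side and 962, 846, 2264 and 1185 CPM on the high side. Its log2 difference, high minus low with the genotype as covariate, was 2.59 ± 0.39 (SE). Dct, dopachrome tautomerase, was at 186, 152, 933 and 1343 CPM against 2098, 1772, 4442 and 2298 CPM (log2 difference 2.54 ± 0.42). Every high library of both genes lay above every low library. Tyrp1, a second melanin enzyme, was at 107, 102, 539 and 740 CPM against 1199, 1035, 2851 and 1532 CPM (log2 difference 2.59 ± 0.36). Tyr, tyrosinase, was at 23.2, 18.1, 88.7 and 147 CPM against 256, 227, 573 and 272 CPM (log2 difference 2.67 ± 0.39).

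The remaining members of the list moved as a block with a few exceptions. Of 18 members, 15 had all 4 high libraries above all 4 low ones and differed at least 2-fold, and the median log2 difference was 2.46. Over all genes tested the median was 0.00481, and 7.92% of genes were separated upward in this way. The division used this contrast, so nothing is read from the share. Sox10 (2.31 ± 0.38), the melanosome transporter Slc45a2 (2.53 ± 0.38), the antigen Mlana (2.5 ± 0.40), the melanocortin receptor Mc1r (2.72 ± 0.36) and the channel Trpm1 (2.75 ± 0.42) were among the 15. The exceptions were Mitf, Kit and Ednrb. Mitf overlapped because KO 2 had 252 CPM and WT 4 had 241 CPM. The receptor Kit differed by 0.25 ± 0.18 and the endothelin receptor Ednrb by -0.18 ± 0.35.

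The make-up of the pigment RNA varied less than its amount, which ran from 585 to 13771 CPM. Dct held between 26.1% and 34% of the counts of the list, Tyrp1 between 16.2% and 21.2% and Pmel between 12.4% and 16.4%, over all 8 libraries. The lowest shares of all 3 were in WT 1 or WT 2. Among smaller members Trpm1 held 3.22% to 5.08%, Tyr 3.1% to 4.28% and Slc45a2 3.28% to 4.51%. Other genes of neural crest and melanoma cells gave a less even picture, with a median log2 difference of 1.5 over 15 genes. The growth factor receptor Met was at 19.8, 15, 54.6 and 71.4 CPM against 160, 131, 326 and 179 CPM (log2 difference 2.51 ± 0.27). Tfap2a, a neural crest transcription factor, Syt4, a vesicle protein, and S100b, a calcium-binding protein, differed by 2.61 ± 0.33, 2.59 ± 0.37 and 2.52 ± 0.38. Of the 15, 6 were separated upward and 1, the water channel Aqp1, downward, against 14.4% and 13.3% of all genes.

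Promoters of the pigment genes are shown because Mitf-bound pigment promoters are known for the motif TCATGTG and these genes moved together. Windows of 250 bases before to 50 after a gene's start were read from RefSeq (GRCm38.p6) and searched on both strands for the 7 letters TCATGTG, which contain the shorter E-box CATGTG. Of 18 members 11 had a window and 6 held the motif, or 54.5%. It was in 3.77% of all 32851 windows, and in 3.02% of the 11622 tested genes with a window. The stretches around the matches follow, in lower case with the motif in capitals, read 5′ to 3′ along the gene's strand.
Tyrp1, chr4:80834146-80834192, plus strand, 47 bases before the start: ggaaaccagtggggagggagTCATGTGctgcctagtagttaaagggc
Tyr, chr7:87493513-87493554, minus strand, 22 bases before the start: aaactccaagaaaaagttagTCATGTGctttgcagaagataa
Dct, chr14:118052371-118052417, minus strand, 151 bases before the start: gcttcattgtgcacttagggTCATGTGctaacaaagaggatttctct
Dct, chr14:118052452-118052496, minus strand, 232 bases before the start: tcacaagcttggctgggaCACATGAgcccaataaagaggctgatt
Trpm1, chr7:64153673-64153719, plus strand, 142 bases before the start: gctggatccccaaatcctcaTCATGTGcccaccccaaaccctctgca
Mc1r, chr8:123407010-123407056, plus strand, 52 bases before the start: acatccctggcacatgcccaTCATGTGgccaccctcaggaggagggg
Slc24a5, chr2:125068094-125068126, plus strand, 13 bases before the start: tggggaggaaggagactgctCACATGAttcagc

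CACATGA is the same motif on the other strand. None of the 18 Kupffer identity genes with a window held it, nor did any of 9 hepatocyte or 6 T cell genes. Since 3.02% of tested genes with a window held it, no match is a likely outcome in such small sets, and nothing is read from it. Among genes separated and at least 2-fold higher on the high side 4.35% of 966 held it, and among those lower 9.42% of 191. A match is a run of letters and was not tested as a binding site.

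Kupffer genes had lower values on the high side, and less unevenly than pigment genes. The 20 Kupffer identity genes summed to 37840, 37393, 26383 and 25636 CPM on the low side and 21618, 24752, 8545 and 19752 CPM on the high side. All 20 had a negative log2 difference, with a median of -0.78. Of these 11 were separated downward, as were 13.3% of all genes, and 3 differed at least 2-fold, as did 1.88% of all genes. In bulk RNA, fewer cells of a type and less RNA per cell cannot be told apart, and since all levels are shares of a library, more RNA of another kind lowers them.

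Clec4f was at 11249, 10521, 7266 and 6708 CPM on the low side and 6242, 6912, 2353 and 5189 CPM on the high side (log2 difference -0.81 ± 0.24). Its sides overlapped, since WT 4 exceeded KO 2. Cd5l was at 8355, 8911, 5853 and 5857 CPM against 4416, 5440, 1799 and 4396 CPM (log2 difference -0.86 ± 0.26), without overlap. Timd4, the gene of Tim-4, was at 862, 911, 624 and 596 CPM against 460, 586, 169 and 420 CPM. Per length, Clec4f stood at 1017 to 4192 FPKM over the 8 libraries and Dct at 23.7 to 805 FPKM. In the other 7 libraries Clec4f and Cd5l each lay above Dct, Tyrp1 and Pmel. KO 3 went against its label in this respect, since Tyrp1 was at 1077 FPKM and Pmel at 1055 FPKM there, above Clec4f at 1017 FPKM and Cd5l at 944 FPKM.

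The relation of the 2 kinds of RNA spread widely. There were 1.74, 1.56, 10.7 and 15.7 melanosome counts per 100 Kupffer counts on the low side and 28.6, 21.4, 161 and 36.5 on the high side. Within the Kupffer list Clec4f held 26.2% to 29.7% of counts, Cd5l 20.4% to 23.8% and Slc40a1 13.4% to 14.7%. The scavenger receptor Cd163 held 6.19% to 8.11% and the scavenger receptor Marco 4.78% to 7.25%. Without KO 3 the Kupffer median was -0.57 and the pigment median 2.45. Macrophage genes not particular to liver had a median of -0.81 over 16 genes, and of 0.0043 scaled to Kupffer counts. Of the 16, 13 were separated downward, as were 13.3% of all genes. Adgre1, which encodes F4/80, was at 1729, 1684, 1058 and 959 CPM against 603, 728, 274 and 662 CPM, and Ptprc, which encodes the sorted protein CD45, at 1203, 1450, 1265 and 1066 CPM against 703, 802, 451 and 714 CPM.

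Over all genes, 1357 were separated and at least 2-fold higher on the high side and 323 lower, so 80.8% of such genes were higher. Scaled to Kupffer counts in place of all genes, the median of all genes moved to 0.91 and the split to 4437 higher and 19 lower. The count of lower genes was 539 without WT 3, 615 without WT 4, 503 without KO 2 and 599 without KO 4. The side differences computed in WT alone and in KO alone, from libraries that are not shared, had the same sign in 79.6% of 17142 genes (Pearson r = 0.659 across genes, which are not independent).

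Beyond pigment, the genes highest by fold included several of very low level on the low side. Cyb5r2, a cytochrome b5 reductase, was at 0.213, 0.169, 0.222 and 0.307 CPM against 4.07, 2.18, 3.86 and 2.21 CPM (log2 difference 3.71 ± 0.41). The lipid transporter Abca12 (3.29 ± 0.40), the zinc finger protein Bnc2 (3.24 ± 0.53) and Aire (3.22 ± 0.43), known for tissue antigens in the thymus, were among the highest. Rapgef3os2, Art5, Odf3l1, Sgip1, the pigment receptor Gpr143, Zpld1, Gpr37, Trib3, Fez1 and Aldh1l2 were also among the 15 with the largest differences. Rapgef3os2 is an opposite-strand transcript and its reads cannot be told from those of its neighbour, because the strand setting is not given in the sources used here. KO minus WT was 0.10 ± 0.38 for Cyb5r2, which lay near 3 counts on the low side, and 0.11 ± 0.29 for Trib3 (edgeR adjusted p = 0.944 and 0.826). Others of the 15 had larger values, such as Aldh1l2 (1.04 ± 0.36) and Aire (0.68 ± 0.41; edgeR adjusted p = 0.0864 and 0.272). The values for the pigment genes Gpr143 and Pmel, given without a test, were 1.58 ± 0.49 and 1.84 ± 0.38.

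**Figure D2:**
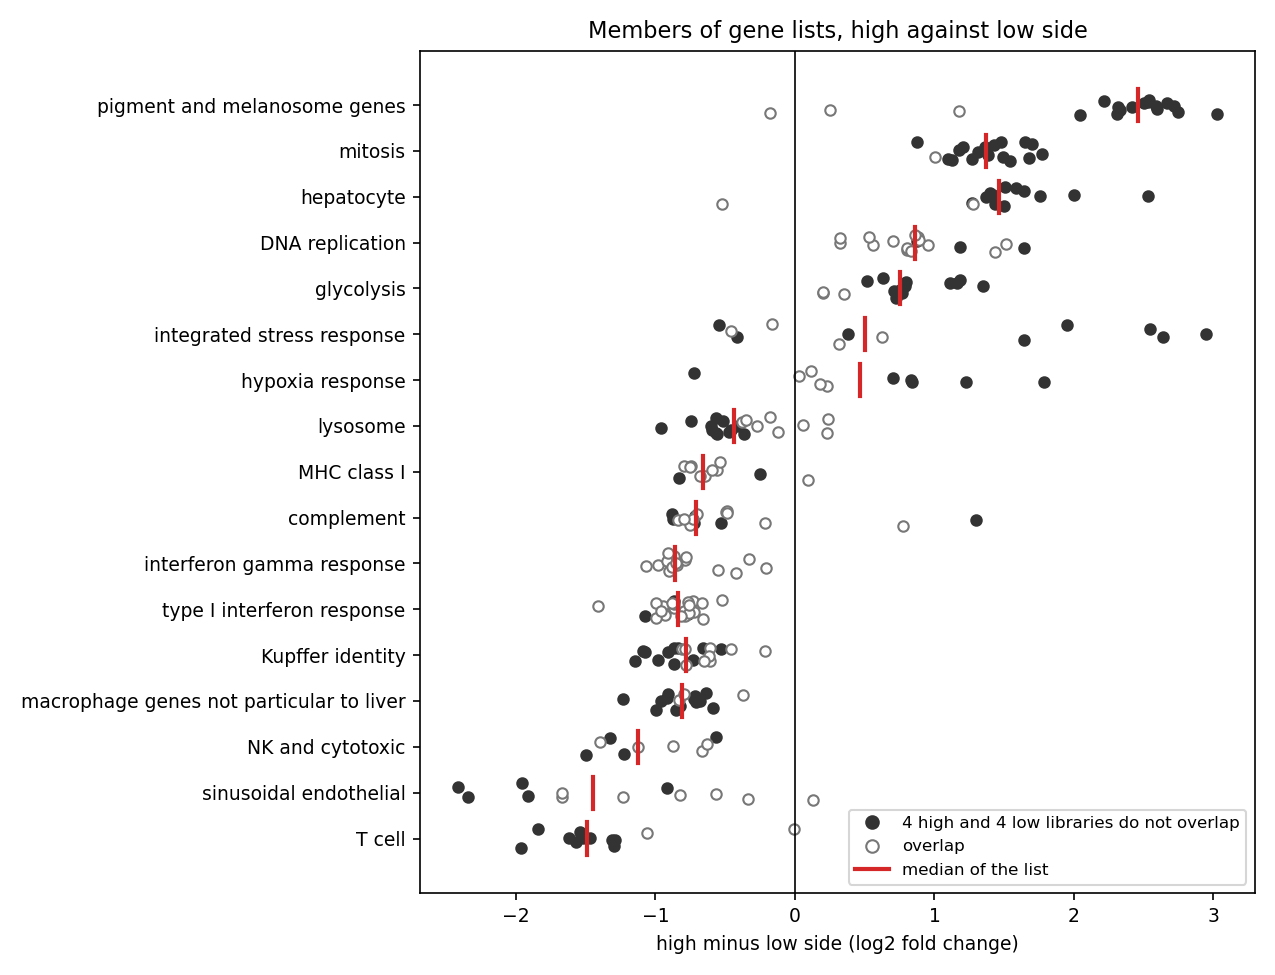
Log2 difference, high minus low, of each tested member of 17 gene lists; filled points are genes whose 4 high and 4 low libraries do not overlap, open points overlap, and red bars are list medians. Pigment (2.46), hepatocyte (1.47) and mitosis (1.37) medians lie to the right and T cell (-1.49), sinusoidal endothelial (-1.45) and NK (-1.13) medians to the left.

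Cell division genes had higher values on the high side. All 18 mitosis genes had positive log2 differences (median 1.37), 17 were separated, as were 14.4% of all genes upward, and 16 of these differed at least 2-fold. Ccnb1, the cyclin of mitotic entry, was at 10.7, 13.9, 27.3 and 42.5 CPM against 55.4, 50.1, 122 and 71.8 CPM (log2 difference 1.77 ± 0.22). The mitotic kinase Plk1 differed by 1.70 ± 0.17 and Cdc20, an activator of anaphase, by 1.68 ± 0.20. All 17 DNA replication genes were positive too (median 0.86), but only 3 were separated: Rrm2 (1.64 ± 0.21), Rrm1 (1.18 ± 0.17) and Mcm7 (0.87 ± 0.13). Melanosome RNA was higher on the same side, and its part in these differences was not tested.

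Metabolic genes followed with smaller differences. Of 15 glycolysis genes 12 were separated upward, 4 of them at least 2-fold, with a median of 0.75. Over all genes 14.4% were separated upward, and 7.92% were separated and at least 2-fold higher. Pgk1, phosphoglycerate kinase, was at 209, 230, 421 and 517 CPM against 699, 598, 1359 and 700 CPM (log2 difference 1.35 ± 0.21). Amino acid stress genes were split. Trib3 (2.94 ± 0.30), asparagine synthetase Asns (2.64 ± 0.40), Chac1 (2.55 ± 0.49), and the serine synthesis enzymes Phgdh (1.95 ± 0.25) and Psat1 (1.64 ± 0.22) were higher at least 2-fold, while the stress factor Ddit3 differed by -0.16 ± 0.12 and the transporter subunit Slc3a2 by -0.55 ± 0.12, which was 0.33 scaled to Kupffer counts. Vegfa, the endothelial growth factor, was at 4.34, 3.32, 7.40 and 8.19 CPM against 18.3, 15.9, 26.4 and 16.3 CPM (log2 difference 1.79 ± 0.22). It was 1 of 5 separated upward among 10 hypoxia response genes. Pdk1, Car9, Egln1 and Ankrd37 overlapped, and P4ha1, a prolyl hydroxylase of collagen, was separated downward (-0.72 ± 0.10).

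Lipid-associated macrophage genes split by gene. Gpnmb, a glycoprotein of melanosomes and of lipid-laden macrophages, was at 78.1, 62.2, 313 and 417 CPM against 815, 625, 1674 and 801 CPM (log2 difference 2.55 ± 0.37). Cd63, a lysosome and melanosome membrane protein, differed by 1.93 ± 0.27 and the fatty acid carrier Fabp5 by 1.82 ± 0.30. Lipoprotein lipase, Lpl, had lower values, at 2123, 1598, 1404 and 1308 CPM against 648, 1054, 343 and 725 CPM (log2 difference -1.24 ± 0.25). The other 9 of the 13 overlapped. Over all genes 14.4% were separated upward and 13.3% downward, so nothing is read from the count of separated members. Gpnmb and Cd63 are also pigment cell genes, and the part of melanosome RNA in these values was not tested.

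Lymphocyte genes were lower on the high side. T cell genes summed to 141, 266, 222 and 169 CPM on the low side and 91.3, 82.6, 62.8 and 59.0 CPM on the high side, without overlap. Of 12 members 10 were separated downward and each of these differed at least 2-fold, with a median of -1.49. Over all genes 13.3% were separated downward, and 1.88% were separated and at least 2-fold lower. Cd3g, a chain of the T cell receptor complex, was at 15.7, 30.7, 26.4 and 16.7 CPM against 8.20, 7.57, 5.84 and 3.94 CPM (log2 difference -1.84 ± 0.26). The coreceptor gene Cd4, the adhesion receptor Cd2 and the kinase Lck differed by -1.30 ± 0.19, -1.54 ± 0.23 and -1.47 ± 0.22. Cd8a and Cd5 overlapped. For Cd5 the KO libraries 1 to 3 were at 0 and KO 4 at 1.63 CPM, and it was at 6.55, 11.8, 3.89 and 3.14 CPM in WT 1 to 4.

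Set against Kupffer RNA, the T cell difference was smaller and less even. T cell counts per 1000 Kupffer counts were 3.73, 7.10, 8.41 and 6.58 on the low side and 4.22, 3.34, 7.35 and 2.99 on the high side. KO 3 therefore lay above WT 1, WT 2 and KO 2 of the low side, and WT 3 above WT 1. The list median was -0.57 when libraries were scaled to Kupffer counts. NK and cytotoxic genes had a median of -1.13, and -0.32 when so scaled. Their counts per 1000 Kupffer counts were highest in KO 3, at 4.03, against 1.72 to 3.43 in the other libraries. Of 9 members 4 were separated downward, against 13.3% of all genes. They included Klre1 (-1.5 ± 0.26), Nkg7 (-1.33 ± 0.31) and Klrb1c (-1.23 ± 0.22). B cell (-0.54), neutrophil (-0.24), dendritic cell (-0.05) and monocyte (0.04) medians lay nearer to 0, and all 4 were positive when so scaled (0.28, 0.72, 0.94 and 0.84). Cells were gated on Tim-4, and whether lymphocytes passed the gate was not tested.

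**Figure D3:**
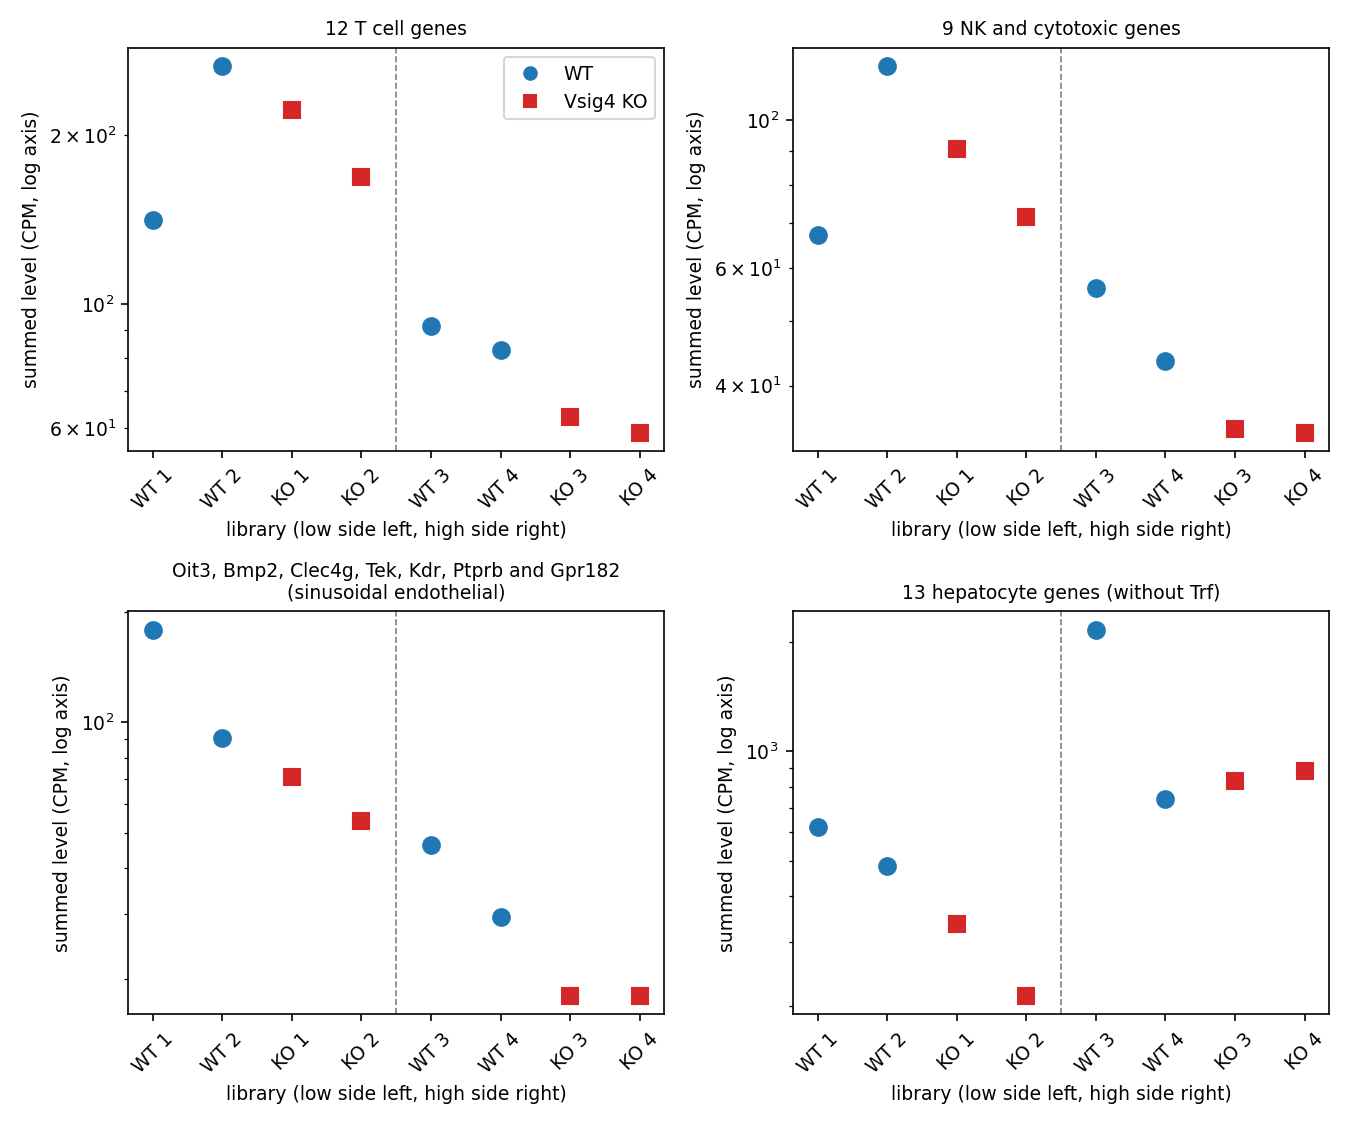
Summed level in CPM, on log axes, of 4 groups of genes that Kupffer cells make little of, in each library; circles are WT, squares are KO, and the dashed line divides the sides. T cell, NK and endothelial sums are higher in each low library than in any high one, and hepatocyte sums are lower. The hepatocyte sum leaves out Trf. Over all 14 genes of that list the sides overlap, at 1101 to 2385 CPM on the low side and 1359 to 3240 CPM on the high side. The endothelial sum is over the 7 genes named in its panel. Over all 12 genes of that list it is 593 to 891 CPM on the low side and 272 to 498.5 CPM on the high side.

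Genes of other liver cell types differed in opposite directions. Hepatocyte genes were higher on the high side: 13 of 14 had positive differences, with a median of 1.47. Of the 14, 12 were separated and at least 2-fold higher, as were 7.92% of all genes. Without Trf, hepatocyte genes summed to 621, 485, 335 and 213 CPM on the low side and 2158, 740, 831 and 883 CPM on the high side, highest in WT 3. With Trf, which held 33.4% to 80.7% of the list, the sums overlapped, at 2385, 1788, 1309 and 1101 CPM against 3240, 1726, 1359 and 1691 CPM. Alb, albumin, was at 403, 302, 168 and 110 CPM against 1343, 404, 447 and 447 CPM (log2 difference 1.5 ± 0.33). Cps1, an enzyme of the urea cycle, differed by 2.53 ± 0.40 and the lipoprotein Apoa1 by 2.0 ± 0.27. Trf, transferrin, was the exception at -0.52 ± 0.16. Within the low side WT 1 and WT 2 had the highest hepatocyte and the lowest melanosome values.

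Sinusoidal endothelial genes had lower values on the high side. Oit3 was at 23.9, 8.38, 7.40 and 5.53 CPM against 2.71, 3.40, 1.43 and 0.945 CPM (log2 difference -2.41 ± 0.34). Bmp2, an endothelial signal that controls iron (-2.34 ± 0.28), the lectin Clec4g (-1.95 ± 0.30), the receptor Tek (-1.92 ± 0.27) and the scavenger receptor Stab2 (-0.92 ± 0.20) were also separated. The list median was -1.45 over 12 genes, and -0.55 with libraries scaled to Kupffer counts. Endothelial genes outside the list were among the 15 lowest of all genes by fold: Clec14a (-2.33 ± 0.36), Gpihbp1 (-2.18 ± 0.39), the anticoagulant receptor Thbd (-2.08 ± 0.27), which macrophages can also make, and Aqp1 (-1.97 ± 0.27). The rest of the 15 were the NK receptor Klra8, Cd8b1, Chad, Cd40lg, Cd3g, Cd209f, Fasl, Fam167b, and Oit3, Bmp2 and Clec4g from the list. Stellate and fibroblast genes had a median of 0.13, with Lum (1.53 ± 0.29), Reln and Des separated upward.

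Immune response genes had lower values on the high side, mostly with overlap. All 16 interferon gamma response genes were negative (median -0.86) and none was separated. Irgm1, an interferon-induced GTPase that acts against bacteria inside cells, was at 147, 226, 153 and 115 CPM against 108, 197, 42.9 and 54.8 CPM (log2 difference -0.86 ± 0.29). All 24 type I interferon genes were negative (median -0.84), with Rsad2 (-0.87 ± 0.10), Oas2 (-0.77 ± 0.22) and Ddx58 (-1.07 ± 0.17) separated. The complement list had a median of -0.71, with C1qb, Cfp, Cr1l and Cd59a among those separated downward and Hc, made by hepatocytes, upward. Lysosomal genes had a median of -0.43, and 12 of 20 were separated downward, as were 13.3% of all genes. The largest difference was that of the acid lipase Lipa (-0.96 ± 0.20). With libraries scaled to Kupffer counts the medians were -0.01 for interferon gamma, 0.0013 for type I interferon, 0.087 for complement and 0.43 for lysosome genes, so the direction of the last 3 lists turned with the scaling, as did that of Rsad2, Oas2, Cfp, C1qb and Cd59a.

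Iron and heme genes had lower values in 8 of 10 (median -0.53), a direction that turned when libraries were scaled to Kupffer counts (median 0.37). Hmox1, which breaks down heme, was at 1673, 1394, 1190 and 1202 CPM against 869, 881, 446 and 737 CPM (log2 difference -0.91 ± 0.17). The metal transporter Slc11a1 (-0.78 ± 0.21) and the ferritin chain Fth1 (-0.45 ± 0.12) were also separated, and the transferrin receptor Tfrc differed by 0.58 ± 0.14 with overlap.

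**Figure D4:**
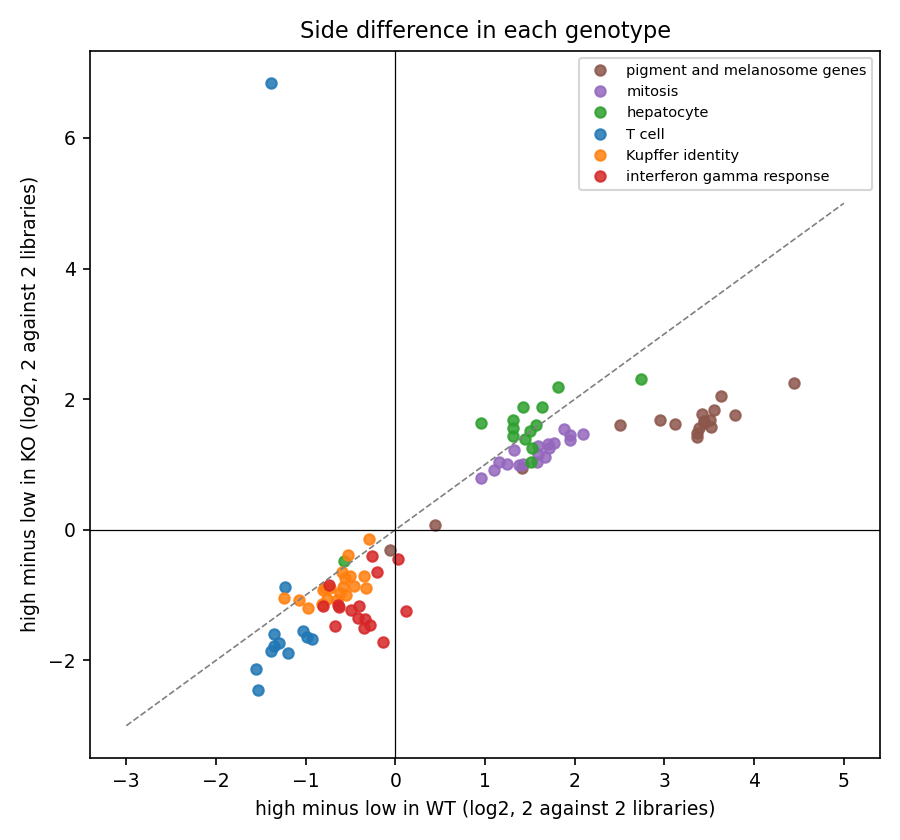
Log2 difference, high minus low, in WT (horizontal, 2 against 2 libraries) and in KO (vertical) for every tested member of 6 lists, with the line of equality dashed. Pigment genes lie below the line (list medians 3.40 in WT and 1.63 in KO), T cell genes lie lower left (-1.32 and -1.71), and the lone point at upper left is Cd5, which had no counts in KO 1 to 3, so that its fitted KO value has no firm size.

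Differences between the sides were of unequal size in the genotypes. The pigment median was 3.40 in WT and 1.63 in KO, the hepatocyte median 1.47 and 1.58, the T cell median -1.32 and -1.71, and the interferon gamma median -0.38 and -1.20. The differences between these list medians were not tested. The test of the change in genotype effect with the side, given below, is made gene by gene.

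With the side as covariate, KO differed from WT in 1452 genes higher (8.47% of those tested) and 536 lower (3.13%) by edgeR at an adjusted p under 0.05. The median log2 difference, KO minus WT, of the pigment list was 1.68, given without a test. Mitosis genes rose in 17 of 18 (median 0.97) and replication genes in 13 of 17 (median 0.83). Interferon gamma genes fell in 14 of 16 (median -1.15), among them Cxcl9, a chemokine that draws lymphocytes, at 86.8, 172, 69.9 and 92.4 CPM in WT 1 to 4 and 89.9, 37.3, 20.7 and 24.9 CPM in KO 1 to 4 (-1.42 ± 0.32, edgeR adjusted p = 0.0295). Type I interferon genes fell in 18 of 24 (median -0.79). Both counts depended on the scaling: with libraries scaled to Kupffer counts 1 of 16 interferon gamma genes (median -0.48) and 0 of 24 type I interferon genes (median -0.10) passed as lower. No T cell gene passed, and 2 of 20 Kupffer genes fell, Spic and Id3.

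Most of these calls rested on the full set of libraries. Vsig4 fell in each of the 8 fits that left out a library, but without WT 1 only 1 gene was higher and 1 lower, without WT 2, WT 3, WT 4 or KO 1 it was 0 and 1, and without KO 2 it was 1 and 1. Without KO 3 there were 485 higher and 291 lower genes, with 9 of 18 mitosis, 1 of 16 interferon gamma and 11 of 24 type I interferon genes still called, and without KO 4 there were 2587 and 1675. With no side term Vsig4 alone passed. Melanosome RNA was 5.50 times higher in KO than in WT on the low side and 1.83 times on the high side, so the side does not remove it from this comparison. With the log2 melanosome sum in place of the side 0 genes were higher and 1 lower, and with it beside the side 1 was higher and 2 lower; the medians were then -0.66 and -1.10 for interferon gamma and 0.08 and 0.40 for mitosis.

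**Figure D5:**
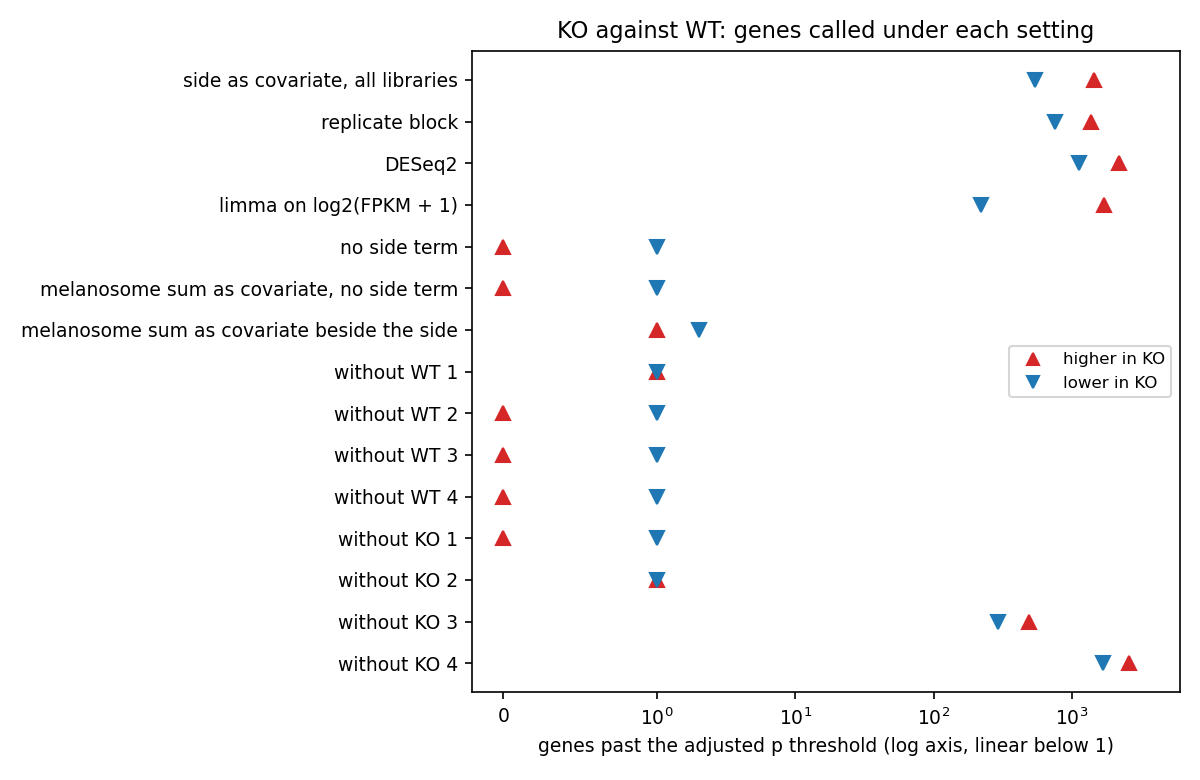
Number of genes past the adjusted p threshold in KO against WT (log axis, linear below 1) under each setting; red triangles are genes higher in KO and blue ones lower. With the side as covariate there are 1452 and 536, and 6 of the 8 fits that leave out a library call at most 1 in each direction.

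Among the genes that rose or fell most were genes of small level outside the lists. Gm42031, an unnamed gene model, was at 0.128 to 0.356 CPM in WT and 3.58 to 17.5 CPM in KO (5.41 ± 0.53, edgeR adjusted p = 0.0157). Upk3b, a membrane protein of urothelium and mesothelium, was at 2.99, 2.64, 2.59 and 0.0642 CPM in WT 1 to 4 and at 0.0551 to 0.358 CPM in KO (-3.58 ± 0.85, edgeR adjusted p = 0.0318). WT 4 lay within the KO range, so the genotypes overlapped. The remaining genes with the largest rises were mostly immunoglobulin variable segments, which share sequence and are uncertain.

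Within the sides the genotypes were compared on 2 against 2 libraries. On the low side 553 genes (3.23%) were higher and 35 (0.204%) lower in KO by edgeR, with 8 of 18 mitosis genes among the higher. The value for Pmel there was 2.76, given without a test. On the high side 0 were higher (0.0%) and 2 lower (0.0117%), Vsig4 and the antibody segment Ighv6-6, and the value for Pmel was 0.93. These counts moved with single libraries: on the low side they were 0 and 1 without WT 1, WT 2 or KO 2, and 1418 and 656 without KO 3; on the high side 2776 and 2631 without KO 4, and 10 were lower without WT 4.

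The difference between the sides in genotype effect passed in 1 gene (0.00583%), Ighv6-6, and in 0 upward (0.0%) by edgeR. At an unadjusted p under 0.05 there were 921, and DESeq2 called 8 higher and 91 lower. The counts of 588 on the low side and 2 on the high side are therefore not shown to differ gene by gene. Ighv6-6 had 59 and 55 counts in WT 1 and WT 2, 77 and 96 in KO 1 and KO 2, 101 and 90 in WT 3 and WT 4, and 1 and 2 in KO 3 and KO 4. The next by p did not pass: Klf9, a glucocorticoid-responsive transcription factor (-2.13 ± 0.24, adjusted p = 0.103), Il15ra, the receptor that presents interleukin 15 (-2.67 ± 0.32, adjusted p = 0.129), and Ppargc1a, a coactivator of mitochondrial genes (-2.23 ± 0.33, adjusted p = 0.442). Klf9 and Il15ra had more counts in KO 1 and KO 2 than in WT, and fewer in KO 3 and KO 4.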

How the data were processed

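RNA-seq was deposited for 4 WT and 4 KO libraries. HTSeq 0.6.1 and mm10 are named in the submitters' processing notes. Not given in the sources used here are the aligner, the annotation release and the strand setting. The authors deposited raw counts per gene and FPKM values in 1 table, per the file headers, with gene size and position as other numbers. FPKM recomputed from counts and sizes matched the deposited FPKM within 0.015 for 100% of genes. Of 52073 identifiers shared with GENCODE M21 (GRCm38) 1435 had the same position, so no deposited coordinate is printed. Column letters C and K were read as WT and KO.

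Genes were filtered by filterByExpr over the 4 groups of genotype and side and scaled by TMM. Models were fitted with the quasi-likelihood test of edgeR 4.0.16 in R 4.3.3 (2-sided), and p-values were adjusted by Benjamini-Hochberg over all 17142 genes, with a threshold of 0.05; log2 differences have SEs derived from the F statistic. Between sides a gene is called separated when the 4 libraries of a side all lie above the other 4, and no p is given. The biological coefficient of variation was 19.45%, and 34.48% with genotype alone. Alternatives used limma 3.58.1 and DESeq2 1.42.0; the code was tested on simulated data.

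Members and lists were chosen with earlier results of these data known. The rule named the 5 markers and Vsig4, the 15 largest differences in each direction among separated genes with a mean FPKM of at least 1 on the higher side and no provisional, pseudogene, histone or receptor segment symbol, up to 4 separated members and the most expressed member of each list, and up to 8 genes each way for tested contrasts (5 by p where fewer than 3 passed). Other list members are named after their values were seen. Some genes that the rule names are left out here.

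The genotypes share title numbers 1 to 4. Deviations from genotype means correlated between same-numbered libraries at 0.50, 0.498, 0.613 and 0.243, each over 0.1. After the side means were also removed the correlation was -0.03 for numbers 1 and 2 and 0.12 for 3 and 4. The main fits did not treat the numbers as pairs, and a fit with the number as a block is given as an alternative. The pairing comes from the data, not the labels.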

Additional observations from a re-analysis of the deposited data

Results flagged for a closer look

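The integrated stress response list summed to 816.8 CPM in KO 3, against 671 CPM in WT 3, 673 CPM in WT 4 and 691 CPM in KO 4. It was set aside because the gap to its nearest neighbour is large for a group of 4, which chance gives in about 1 in 20 groups. The same rule was applied to every list and marker on both sides, so chance alone gives some such gaps. KO 3 also held the most melanosome RNA, 13771 CPM; its part in this value was not tested.

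The genotype effect on Ighv6-6 differed between the sides by -6.44 on the log2 scale (edgeR adjusted p = 0.0338). The segment had 1 and 2 counts in KO 3 and KO 4 and 55 to 101 in the other libraries. Antibody segments share sequence, so the count is uncertain.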

How the results depend on the processing

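Counts are given as genes higher and genes lower. Between the sides the count was 2204 and 495 in WT alone and 1889 and 1189 in KO alone, 4437 and 19 scaled to Kupffer counts, 1839 and 1038 at 1.5-fold, 557 and 31 at 4-fold, 616 and 60 on log2(FPKM + 1) and 1396 and 182 on log2(FPKM + 0.1). Leaving out a library gave 1334 to 1828 higher and 308 to 615 lower. Without a filter it was 1535 and 479.

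For KO against WT with the side as covariate it was 4748 and 26 scaled to Kupffer counts, which moved the median of all genes to 0.73, 2289 and 1654 without a filter, 2192 and 1127 with DESeq2, 1692 and 220 with limma on log2(FPKM + 1), 0 and 1 with no side term, 0 and 1 with the melanosome sum in place of the side, and 1 and 2 with it beside the side. The melanosome settings were chosen after seeing the data. Leaving out a library gave 0 to 2587 higher and 1 to 1675 lower. With the replicate block in place of the side it was 1377 and 748. The pairing of the block moved neither count by more than 1.5 times.

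Within the low side DESeq2 called 1012 and 128, and leaving out a library gave 0 to 1454 and 1 to 656. Within the high side DESeq2 called 238 and 342, and leaving out a library gave 0 to 2776 and 2 to 2631; the lone library of an arm was then assumed to vary like the others. The change of genotype effect with the side was called in 45 and 453 without a filter, in 8 and 91 with DESeq2 and in 0 to 16 and 0 to 301 with a library left out.

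Some named genotype differences turned sign, and the cause was not tested. Dct, Trpm1, Mc1r and Tyr are themselves part of the melanosome sum, which draws their values towards 0 in the fits that hold it. Nothing is read from their signs there. Scaled to Kupffer counts the log2 values were Trf 0.00274, Rsad2 0.0651, Erap1 0.13, Nfkbia 0.19, Ftl1 0.63, Ddx3y 0.0582 and mt-Co1 0.61. With the melanosome sum in place of the side they were Dct -0.00284, Art5 -0.56, Abca12 -0.52, Sgip1 -0.52, Gpr37 -0.0912, Oit3 0.21, Aqp1 0.0885, Trpm1 -0.0331, Mc1r -0.18, Tyr -0.22, Tfap2a -0.027, Syt4 -0.20, S100b -0.0849, Gpnmb -0.17, Cdc20 -0.0474, Pgk1 -0.02995, Tpi1 -0.0603, Ndrg1 -0.0357, Asns -0.35, Phgdh -0.0351 and Sqle -0.0396. With it beside the side they were Dct -0.16, Abca12 -0.15, Trpm1 -0.0612, Mc1r -0.0376, Tyr -0.22, Syt4 -0.15, S100b -0.13, Gpnmb -0.17, Fabp5 -0.000165, Asns -0.24 and Ppargc1a -0.0325. Between the sides, 53 of 195 named genes turned sign when libraries were scaled to Kupffer counts, and 37 of these were separated, all lower by TMM and none of them 2-fold. Under each other setting at most 6 turned sign, and none of those was separated. Levels near 3 counts, or 0.154 to 0.213 CPM per library, are limited by depth.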

Other observations

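With the side as covariate 8 of 15 chaperone genes rose in KO, among them the mitochondrial chaperone Hspd1 (1.16 ± 0.19, edgeR adjusted p = 0.026) and the cytosolic Hsp90aa1 (0.91 ± 0.16, edgeR adjusted p = 0.026). Of all genes 8.47% rose in that fit. With the melanosome sum in place of the side, or beside it, 0 of the 15 passed. Of all genes, those fits called 0 higher and 1 lower, and 1 higher and 2 lower. With so few calls, nothing is read from the 0 of 15. Between the sides only Dnajb1 (-0.99 ± 0.10) and Hspa8 (-0.76 ± 0.16) were separated, both with lower values on the high side, though Hspa8 was at 0.21 scaled to Kupffer counts. Over all genes 14.4% were separated upward and 13.3% downward, so nothing is read from the count of separated chaperones. Sterol synthesis genes were positive between the sides in 13 of 14, with a median of 0.36 and Sqle, squalene epoxidase, at 1.07 ± 0.15; without KO 3 it was 10 of 14 and 0.18. Ribosomal protein genes had a median of 0.12 over 85 genes, and of 0.05 without KO 3.

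Genes separated and at least 2-fold higher on the high side were 12.3% of the tested genes on chromosome 9 and 11.5% on chromosome 6, against 7.92% of all genes. On chromosome 6, 4.08% were lower, against 1.88% of all genes. Y-linked Ddx3y was present in every library, at 75.4 to 257 CPM, and Xist had at most 6 counts.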
